A study of Mus musculus with 2 samples.

Results

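The genes described here encode the chains of collagen and laminin, the proteins from which fibrils and basement membranes are built. They were chosen by name alone: every non-control probe whose gene name on the array was a collagen chain (Col, a number, a, a number) or a laminin chain (Lama, Lamb or Lamc with a number) was taken. This gave 55 genes, 44 of collagen and 11 of laminin, among 37074 gene names, with 121 of the 56605 distinct probes. All 55 symbols are also in the gene table of assembly GRCm38.p6. Col21a1 and Lamb4 were not analysed here.

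The cells were mDE6, a mouse line labelled as odontogenic epithelial cells, the epithelium from which enamel-forming cells arise. The study treated them with CHIR99021, an inhibitor of GSK-3 that activates the β-catenin pathway, to look for genes that respond to this pathway. Each condition, control and CHIR99021, was hybridised to 1 Agilent array after 6 h; the arrays shared a slide, and the position on it and the treatment cannot be told apart. The labels give the control as DMSO-treated and the dose as 5 mM, whereas the methods give untreated cells and the same figure in micromolar. No genotype change or second agent is given for either group, and mDE6 is a single cell line. With 1 array per condition there is no test between conditions, and every ratio below describes these arrays only.

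Collagen chains wind around each other in groups of 3 as a triple helix, which requires a small glycine after every 2 other residues. Fibrillar collagens pack into the fibers of connective tissue, type IV collagen forms the sheet of basement membranes, and other types decorate fibrils, anchor membranes or span the cell surface. Laminins are cross-shaped trimers of 1 α, 1 β and 1 γ chain that cells bind through integrins, and in the tooth germ they lie in the basement membrane between dental epithelium and dental mesenchyme. Dental mesenchyme is the usual source of fibrillar collagen, while the chains Lama3 and Lamb3 belong to the laminin that holds epithelia at hemidesmosomes.

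The repeat of the triple helix can be read in the probes themselves. The 4 probes whose letters hold a glycine codon after every 2 other codons of an open frame are shown because they report the part of a chain that defines a collagen; capitals mark the glycine codons (GGN), and each sequence is 5′ to 3′ along the transcript.
Col11a2: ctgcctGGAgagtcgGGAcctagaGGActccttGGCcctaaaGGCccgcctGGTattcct
Col15a1: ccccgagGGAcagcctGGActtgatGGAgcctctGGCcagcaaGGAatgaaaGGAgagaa
Col5a3: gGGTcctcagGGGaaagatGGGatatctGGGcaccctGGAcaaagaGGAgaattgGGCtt
Col6a3: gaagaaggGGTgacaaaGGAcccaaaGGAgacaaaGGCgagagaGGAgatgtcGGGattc

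In mouse build mm9, which the files use, the Col11a2 probe lies at chr17:34189287-34189453 on the plus strand, the Col15a1 probe at chr4:47283786-47283845 on the plus strand, the Col5a3 probe at chr9:20590066-20590795 on the minus strand and the Col6a3 probe at chr1:92689602-92690594 on the minus strand. Except for that of Col15a1, these spans are longer than the 60 bases of a probe, so that the probe crosses a splice junction; exons are not named in the files. Of the 4 probes, that of Col6a3 was detected, which here means flagged by the array software as well above background, while the other 3 were on neither array. Col5a3 and Col11a2 were detected by another probe. A pair of laminin probes that also cross a junction and have an open frame is shown because each gave nearly the same signal on both arrays.
Lamb1: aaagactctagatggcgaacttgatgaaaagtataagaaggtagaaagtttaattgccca
Lamc1: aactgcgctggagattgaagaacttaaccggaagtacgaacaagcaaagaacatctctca

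The Lamb1 probe lies at chr12:32012684-32014030 on the plus strand and the Lamc1 probe at chr1:155077970-155078896 on the minus strand, both in mm9. The signal of this Lamb1 probe was 3528 in control and 3609 in CHIR99021-treated cells, and that of the Lamc1 probe was 534 and 536.

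On the control array, 36 of the 55 chains (65.5%) had a probe well above background, against 48.9% of all gene names. Counted by probe there was no such gap: 57 of the 121 chain probes (47.1%) and 27006 of all 56605 probes (47.7%) were detected, and the chains had 2.2 probes each against 1.53 per gene name over the array. Among the collagens 28 of 44 were detected and among the laminins 8 of 11. By family, 10 of 11 fibrillar collagens, 3 of 6 type IV chains, 2 of 3 chains of types VIII and X, 4 of 7 chains of types VI and XXVIII, 5 of 9 fibril-associated collagens, 2 of 4 transmembrane collagens and 1 of 2 multiplexins were detected, and type VII was. The CHIR99021 array also gave 36 chains; Col9a2 was detected on the control array alone and Lamb3 on the CHIR99021 array alone. Whether a chain is called detected depends on which of its probes is read: 45 of 85 probes designed on a RefSeq mRNA were detected on the control array, against 9 of 30 designed on an Ensembl transcript.

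**Figure D1:**
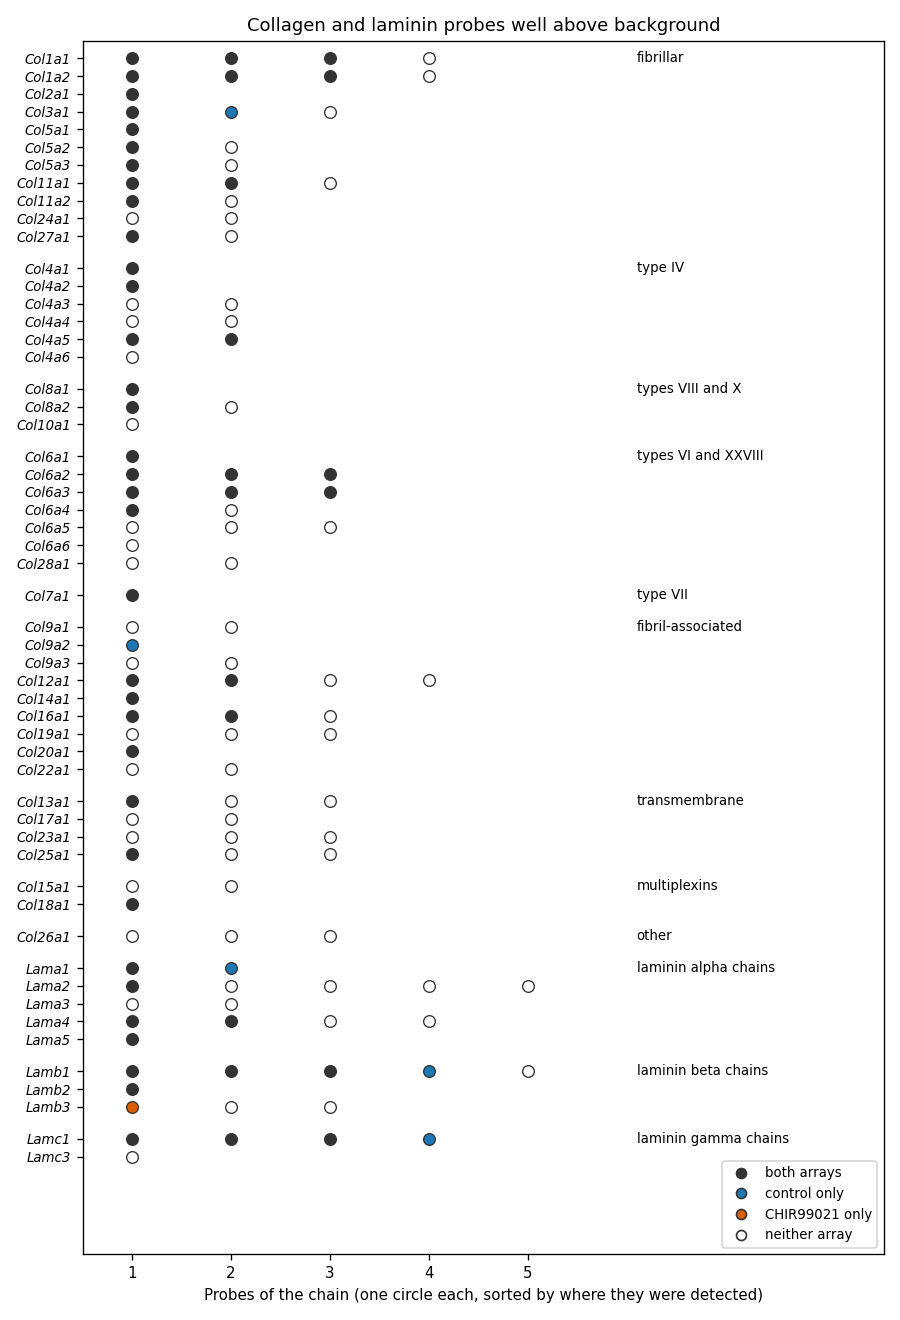
Each circle is a probe of the named chain, with all but 1 of the 55 chains drawn, filled black where it was well above background on both arrays, blue on the control array only, orange on the CHIR99021 array only, and white on neither; chains are grouped by family. All probes of 18 chains are white, and Lamb3 has the single orange circle.

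The 19 chains without a detected probe on the control array included chains known from hemidesmosomes of epithelia, while Lama1, Lama5 and Col7a1, also chains of epithelial basement membranes, were detected. Col17a1, the transmembrane collagen of hemidesmosomes, was not well above background at either of its 2 probes. Lama3, at 4.88 and 5.35 in control and 5.39 and 5.85 in CHIR99021-treated cells, was not well above background either. The others were Lamb3, also a chain of hemidesmosomes, and Lamc3, Col4a3, Col4a4, Col4a6, Col6a5, Col6a6, Col9a1, Col9a3, Col10a1, Col15a1, Col19a1, Col22a1, Col23a1, Col24a1, Col26a1 and Col28a1. A probe not well above background gives an upper bound on the signal and does not show that the transcript is missing.

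The labelled cell type was checked against marker genes read in the same way. Of 10 epithelial markers, 5 were detected in control and 4 in CHIR99021-treated cells. The keratins Krt8 and Krt19 and the adhesion molecules Cdh1 and Epcam were detected on neither array, Krt18 and Cldn1 were detected on the control array only, and Krt5 had a signal of 5.51, not well above background, in control and 165 in CHIR99021-treated cells, with a Z-score of 2.88 that, with its computed ratio, met both criteria for higher. Trp63, a transcription factor of stratified epithelia, had signals of 2306 and 2896, and Krt14 48.5 and 54.6, control first. Of the 4 probes of Trp63, 2 were detected in control and 1 in CHIR99021-treated cells. Of 11 mesenchymal markers, 10 were detected on both arrays, among them Vim at 52302 and 45883, Prrx1 at 14806 and 14454 and Dcn, a proteoglycan that binds collagen fibrils, at 3353 and 2319. After scaling the ratio was 0.910 for Vim, 1.01 for Prrx1 and 0.717 for Dcn, and over 1.5 for Twist1 (1.55) and Msx1 (1.54), factors of dental mesenchyme; the other 5 detected markers, Cdh2, Pdgfra, Pdgfrb, Twist2 and Thy1, were between 0.684 and 0.901, the median of the list was 0.843, and none of the 10 reached a Z-score of 2.0 or -2.0. By these counts several defining epithelial markers were at or near background while fibrillar collagen chains and mesenchymal markers were detected; the part of the cell type in the levels of the chains was not tested. The summed signal of the markers detected on at least 1 array was 2902 and 3518 for the epithelial list and 79315 and 70294 for the mesenchymal list, control first; these sums are led by single probes, Trp63 and Vim, and are not comparable between lists. Of 4 endothelial markers, Pecam1 was detected on the control array only, with a summed signal of the list of 29.9 and 19.2. Of 4 macrophage markers Ptprc, Csf1r and Cd68 were detected on both arrays and Adgre1 on neither, with a summed signal of 2928 and 3081. Ptprc, at 1709 and 1764, led this sum and was detected at only 1 of its 7 probes on each array. In an array of a whole culture, fewer cells of a type and less RNA per cell cannot be told apart.

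After CHIR99021, the median ratio of the chains at their highest-signal probes stood close to that of the other genes. The signals were divided by the 75th percentile of their array, 486.7 (control) and 469.2 (CHIR99021), and a ratio is CHIR99021 over control after this scaling, whereas signals are given before it. Of several probes for a chain, that with the highest signal stands for it. A chain was called lower where the ratio was at most 0.66 and the Z-score, the distance of its log2 ratio from the mean of the 500 probes nearest in signal in units of their SD, was at most -2.0, and higher at 1.5 and 2.0. Of 37 chains with a tested probe, that is one well above background on at least 1 array, 1 was called lower, against 3.22% of all 18837 tested gene names, and 0 were called higher, against 2.63%. By the ratio alone, 2 were lower, Col5a2 and Col6a4, against 9.67% of gene names, and 2 were higher, Col11a2 and Lamb3, against 8.05%. The median log2 ratio was 0.01 over the 37 chains and 0.02 over all tested gene names, with 18 chains below a ratio of 1 and 19 above. As a mean over all tested probes of a gene, dim ones included, these medians were -0.14 and 0.02. The ratio as computed, without bounds, was between 0.8 and 1.25 for 27 of 37 chains (73.0%) and for 62.0% of all gene names. Neither the called chain nor any other difference has a replicate check. Within the arrays, 282 probes printed 10 times gave a median SD of the log2 ratio of 0.03, a measure of the error between spots and of nothing else. Of the 37 chains, 10 lay on both sides of a ratio of 1 over the settings tried for scaling, filter and probe choice, Col1a1, Col4a1, Col5a1, Col6a1, Lamb1 and Lamc1 among them, so that no direction is given for these.

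**Figure D2:**
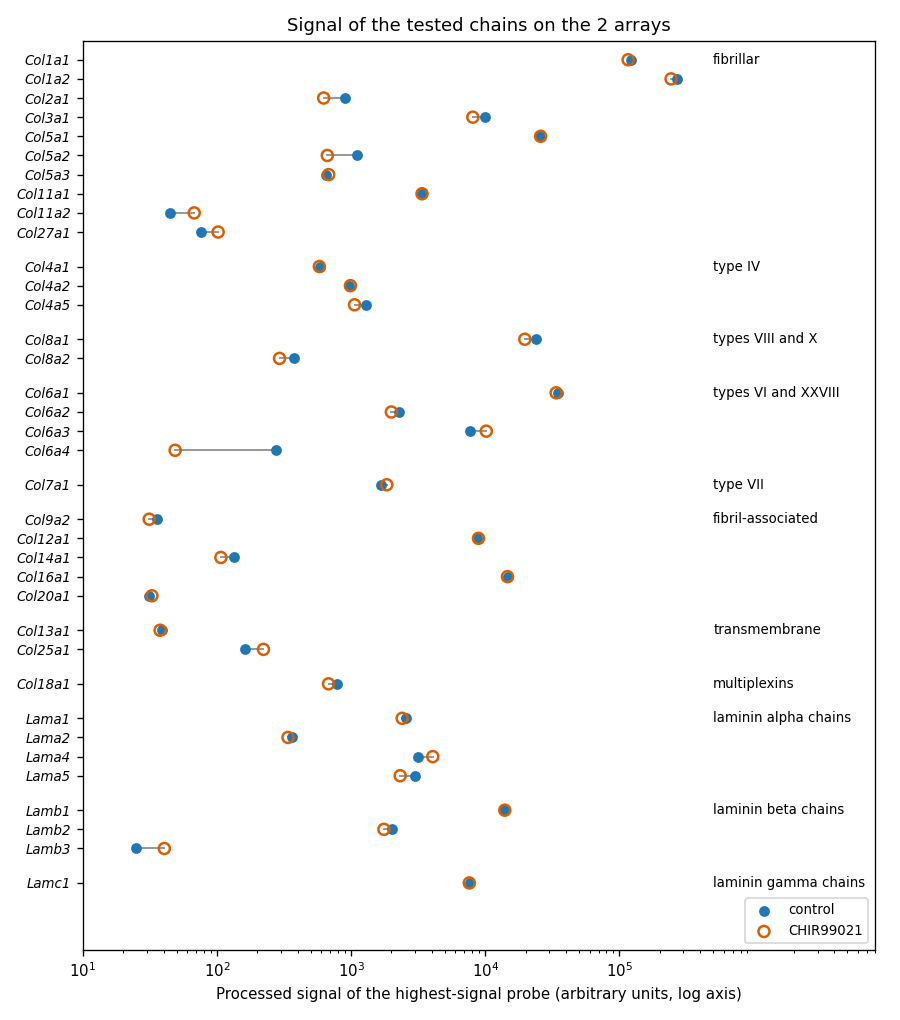
Signal of the highest-signal probe of 36 of the 37 tested chains, in arbitrary units on a log axis, on the control array (filled blue circle) and the CHIR99021 array (open orange circle), before scaling and by family. The circles of most chains overlap or nearly so, and Col6a4 has the longest line, from 275 to 48.8; positions of different chains are not comparable, since each has its own probe.

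Among the fibrillar collagens, 5 of the 10 tested chains had ratios below 1 and 5 above, with a median log2 ratio of 0.01. Col1a1, the major chain of bone, dentin and tendon collagen, was the best measured of all: its highest-signal probe is printed 10 times and gave signals from 110337 to 131815 in control cells, with a median of 123843, and from 105615 to 124734 in treated cells, with a median of 116740. The spots of the arrays overlapped, and the scaled ratio was 0.982 with an SD of the log2 ratio of 0.05 over the spots. The other Col1a1 probes measured on both arrays gave 0.966 and 1.00, and that at 0.966 overlaps the highest-signal probe in sequence.

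Col1a2, the partner chain of Col1a1, had a signal of 270783 in control and 242601 in CHIR99021-treated cells. Its ratio was 0.929, and 2 further probes gave 0.812 and 0.832, so that all 3 were below 1. Col3a1, which forms mixed fibrils with type I collagen, went from 9993 to 8080, a ratio of 0.839 (Z-score -1.26). None of these met the criterion of 0.66 at the highest-signal probe; as a mean over probes, 1 of which dropped from 27.6 to a dim 13.8, Col3a1 had a ratio of 0.6596 and was not called.

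Type V collagen starts fibrils and sets their width, and its chains did not move alike. Col5a1 had signals of 25459 and 25852, a ratio of 1.05. Col5a2, the chain that joins 2 copies of Col5a1, had signals of 1110 and 665, a ratio of 0.622. Its Z-score of -1.96 missed the criterion of -2.0 narrowly, and under quantile normalization, in the authors' table and as a mean over probes Col5a2 was called lower, with Z-scores of -2.02, -2.02 and -2.08. The other probe of Col5a2 was detected on neither array, so a single probe carries this value. Col5a3 had signals of 650 and 681, a ratio of 1.09.

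Col2a1, the fibrillar collagen of cartilage, had signals of 900 and 625, a ratio of 0.720 (Z-score -1.24). Its fibril partner Col11a1 had signals of 3376 and 3380, a ratio of 1.04, but a second probe gave 202 and 140, a ratio of 0.718. Col11a2 had signals of 44.6 and 67.7, a ratio of 1.58, past 1.5, yet with a Z-score of 0.73, because ratios of other probes as dim as this spread widely. Col27a1, also of cartilage, was similarly dim, at 76.1 and 102, a ratio of 1.39 (Z-score 0.67). With normexp background correction the ratio of Col11a2 was 1.23 and so no longer past 1.5.

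**Figure D3:**
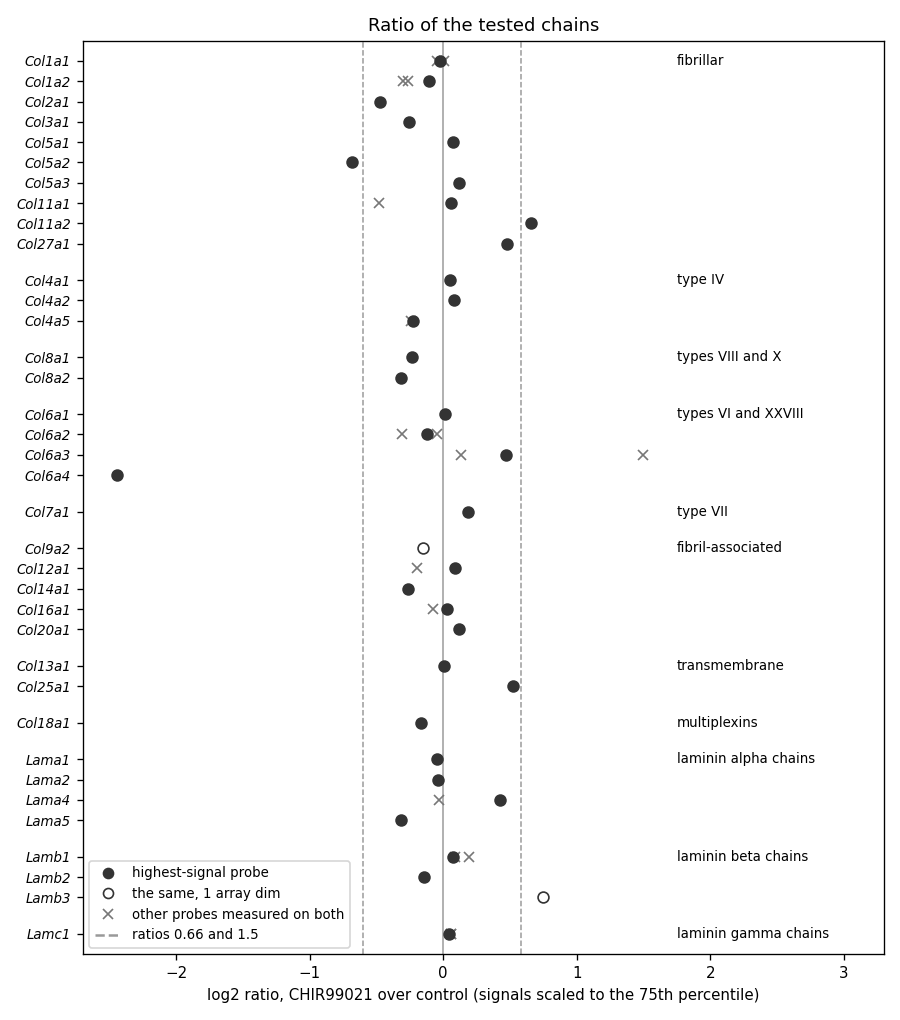
log2 ratio of CHIR99021 over control for 36 of the 37 tested chains, by family: filled circles are the highest-signal probe, open circles the same where 1 array was not well above background, crosses further probes measured on both arrays, and dashed lines the ratios 0.66 and 1.5. Most circles sit near 0, Col6a4 stands far to the left at -2.44, and the crosses of Col6a3 are spread from 0.13 to 1.5.

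In the basement membrane collagens the differences were small. Col4a1 had signals of 582 and 580, a ratio of 1.03, and Col4a2 969 and 989, a ratio of 1.06; these chains form the common type IV collagen of most basement membranes. The genes Col4a1 and Col4a2 lie head to head on chromosome 8 in GRCm38.p6, with annotated starts 21 bases apart on opposite strands, while those of Col4a5 and Col4a6 on chromosome X are 1343 bases apart. The stretch from the start of Col4a2 to the start of Col4a1, chr8:11312805-11312826 on the plus strand, is given here from RefSeq because both measured transcripts begin at its ends.
Col4a2 and Col4a1: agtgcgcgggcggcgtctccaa

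Both genes of the first pair were detected on both arrays. Of the second pair Col4a5, at 1288 and 1061 with a ratio of 0.854, was detected and Col4a6 was not. The second probe of Col4a5 gave 180 and 147, a ratio of 0.846, so that its probes differed by a log2 ratio of only 0.01. Col4a3 and Col4a4, known from the basement membranes of kidney and lung, were not detected.

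Col7a1, the anchoring fibril that ties the basement membrane to the tissue beneath, had signals of 1681 and 1845, a ratio of 1.14. Col18a1, a collagen of basement membranes that carries heparan sulfate chains, had signals of 789 and 679, a ratio of 0.892. Neither was past 0.66 or 1.5. Col15a1 and Col17a1 gave no ratio, since none of their probes was well above background. Col8a1 had signals of 24008 and 19724, a ratio of 0.852, and Col8a2, its partner in the network beneath some endothelia, 377 and 293, a ratio of 0.805. The pixels of this Col8a2 spot varied by 0.273 of their mean on the CHIR99021 array. That is above the limit of 0.261 for this array, set as described below for Col6a4. The other probe of Col8a2 was detected on neither array.

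Type VI collagen forms beaded filaments next to basement membranes and had the only called chain. Col6a1 had signals of 34633 and 33769, a ratio of 1.01. Col6a2 had signals of 2258 and 1997, a ratio of 0.917, and its other probes gave 0.808 and 0.967. These chains assemble with another, which is Col6a3 or one of its relatives Col6a4, Col6a5 and Col6a6.

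Col6a3 had signals of 7638 and 10178 at its highest-signal probe, a ratio of 1.38 (Z-score 1.38). The glycine repeat probe printed above gave 145 and 153, a ratio of 1.096. The third probe, designed on an Ensembl transcript, gave 41.2 and 112, a ratio of 2.83 (Z-score 1.51). All 3 ratios were above 1, and their range of 1.37 on the log2 scale was the widest among the 11 chains with several probes measured on both arrays. The third probe lies inside the genomic span of the glycine repeat probe and shares with it no run longer than 6 bases, so it reads the stretch that the glycine repeat probe skips at its splice junction. What this probe measures, spliced or unspliced transcript, was not tested.

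Col6a4 was the only chain called lower. Its signal was 275 in control and 48.8 in CHIR99021-treated cells, a ratio of 0.184 with a log2 ratio of -2.44 and a Z-score of -3.81, and 1.99% of tested gene names had a ratio as low or lower. This value rests on 1 spot in row 381 of 384. On the control array the pixels of this spot varied by 0.332 of their mean, above the limit of 0.260 that 99% of spots in the earlier rows kept, and without spots past the limit Col6a4 has no value and 0 chains are called lower. Of the 44 spots within 3 rows and columns, 5 fell by more than 4-fold, and the median log2 ratio of these spots was 0.08. Over both arrays, 92.9% of the 1277 probes past 4-fold lay in the later rows, beyond row 192. The other probe of Col6a4, in row 13, was detected on neither array, at 5.64 and 6.14. The part of array position in this value was not tested. With normexp correction the ratio was 0.374.

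Of the fibril-associated collagens, 5 were tested, and the 4 with a detected probe on each array had ratios between 0.8 and 1.25. Col12a1, which coats type I fibrils under tension, had signals of 8683 and 8905, a ratio of 1.06, with a second probe at 0.871. Col16a1 had signals of 14880 and 14647, a ratio of 1.02, with a second probe at 0.947. For both chains the probes lay on opposite sides of 1.

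Col14a1 had a signal of 133 in control cells and a ratio of 0.832, and Col20a1 signals of 31.3 and 32.8, a ratio of 1.09. Col9a2, a chain of cartilage fibrils, had a signal of 36.0 on the control array. On the CHIR99021 array it was not well above background, at 31.3. Its bound in this processing was 1.11-fold lower, and with normexp correction the ratio was 0.968. Col9a2 and Col20a1 are dim, close to the lowest signals well above background, 23.7 and 26.3. Col13a1, a collagen of cell adhesions, had signals of 38.9 and 37.7, a ratio of 1.00. Col25a1, another transmembrane collagen, had signals of 161 and 222, a ratio of 1.44, from a spot in row 378 whose pixels varied by 0.348 of their mean on the control array, also above the limit.

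Of the laminin chains, 9 of 11 were tested, 5 with a ratio below 1 and 4 above, and none was called. Among the α chains, which carry the main binding sites for cells, Lama1, the chain of early embryonic epithelia, had signals of 2571 and 2403, a ratio of 0.970. Its second probe, at 25.4, was detected on the control array only and read 5.60 after CHIR99021, and as a mean over both probes the ratio of Lama1 was 0.471. Lama2, best known from muscle, had signals of 362 and 339, a ratio of 0.971. At these highest-signal probes Lama1 and Lama2 differed little between the arrays.

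Lama4, a chain of vascular and mesenchymal basement membranes, had signals of 3138 and 4063, a ratio of 1.34 (Z-score 1.16). Its second probe gave 563 and 531, a ratio of 0.978, so that the probes disagreed on the direction. Lama5, the most widespread α chain of epithelia and one that tooth germ epithelium needs, had signals of 3003 and 2323, a ratio of 0.803 (Z-score -1.26), from its only probe.

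Among the β chains, Lamb1 had signals of 13813 and 13990, a ratio of 1.05. Its further probes measured on both arrays gave 1.06 and 1.14. Another probe, at 37.5, was dim after CHIR99021, at 18.3, at least 1.37-fold lower, and as a mean over its probes Lamb1 had a ratio of 0.896. Lamb2, which replaces Lamb1 in many mature basement membranes, had signals of 2009 and 1757, a ratio of 0.907. Lamb3 was dim in control cells, at 25.1 and not well above background, and had a signal of 40.6 on the CHIR99021 array. Its bound in this processing, 1.68-fold higher with a Z-score of 0.39, equals the computed ratio and is no minimum over other settings. This rests on 1 of its 3 probes, in row 380, and with normexp correction the ratio was 1.25.

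Among the γ chains, Lamc1, which is part of most laminins, had signals of 7663 and 7605, a ratio of 1.03. Further probes measured on both arrays gave 1.04 and 1.04, within a log2 range of 0.02. Of these, 1 reads almost the same bases as the highest-signal probe, so that their agreement is no separate check. The fourth probe, at 35.7, was dim after CHIR99021, at 16.5, at least 1.31-fold lower, and as a mean over its probes Lamc1 had a ratio of 0.855.

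Where a chain had several probes measured on both arrays, these serve as a check of the sequence read, not of the condition. Some probes of Col1a1 and of Lamc1 overlap and are not such a check of each other. In 11 such chains, 6 had all ratios on the same side of 1, and the range between probes had a median of 0.19 on the log2 scale, from 0.01 for Col4a5 to 1.37 for Col6a3. Over the 282 probes printed 10 times, the SD between spots of the same probe had a median of 0.03 and reached 0.25. A range over probes and an SD over spots are different measures and cannot be ranked against each other.

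**Figure D4:**
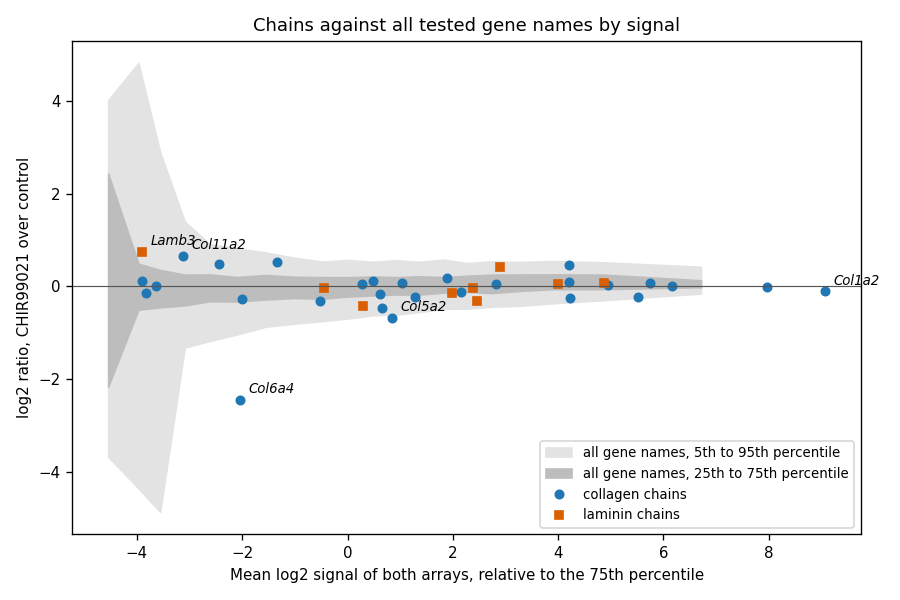
log2 ratio against mean log2 signal relative to the 75th percentile for the 27 collagens measured on both arrays and Col9a2 (blue circles) and the 9 laminins (orange squares), over grey bands that hold the 5th to 95th and the 25th to 75th percentile of all tested gene names in 20 bins of signal. Col6a4 and Col5a2 lie under the outer band, 0 chains lie over it, and the bands widen toward dim signals, where Col11a2 and Lamb3 lie inside.

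Set against gene names of like signal, 18 of the 37 chains lay between the 25th and 75th percentile of the log2 ratio, 13 below and 6 above. Below the 5th percentile were 2 chains: Col6a4 at -2.44 where that percentile was -1.04, and Col5a2 at -0.69 where it was -0.61. Above the 95th percentile there were 0 chains.

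The window from 250 bases before to 50 bases after the annotated start was searched on both strands for CTTTGA, the core letters of the site that LEF and TCF, the partners of β-catenin on DNA, are known to bind. Of 40 chains with such a window in the RefSeq promoter table (GRCm38.p6), 11 (27.5%) held it, and so did 18.2% of 27025 genes. Among the 28 tested chains with a window, 8 held it. These included Col6a1 (ratio 1.01), Col6a2 (0.917), Col5a3 (1.09), Lama2 (0.971) and Lamb2 (0.907). A match is a description of the letters and not a site.

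Genes that process, join or bind these chains were read from lists chosen for function. Of 29 enzymes and chaperones of collagen, 28 were detected on the control array and tested, 0 were called lower and 2 higher, with a median log2 ratio of 0.03. The called genes encode subunits of prolyl 4-hydroxylase, which makes the hydroxyproline that holds the triple helix together; its other catalytic subunits were not called, with a ratio of 1.175 for P4ha1 and 0.677 for P4ha3. P4ha2, a catalytic subunit, had signals of 7699 and 12503, a ratio of 1.69 (Z-score 2.38), from a spot in row 307, so that it has no tested spot in the earlier rows. P4hb, the subunit that it shares with the other forms and that also works as a disulfide isomerase, had signals of 13084 and 19821, a ratio of 1.57 (Z-score 2.05). Loxl4, of the lysyl oxidases that cross-link collagen, had signals of 276 and 172, a ratio of 0.648 (Z-score -1.48), and met the ratio criterion alone. No other gene of this list was past 0.66 or 1.5. P4hb was not called under quantile normalization (ratio 1.497), in the authors' table (1.467) or as a mean over probes (1.446), which leaves 1 gene of the list higher.

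Of 18 basement membrane partners, 14 were detected on the control array and 15 tested, with 1 called lower, 0 higher and a median log2 ratio of -0.07. Smoc2, a calcium-binding matrix protein related to Sparc, had signals of 396 and 218, a ratio of 0.571 (Z-score -2.12). Its Z-score missed the criterion with normexp correction (-1.87), as a mean over probes (-1.45) and in the earlier rows (-1.72), while its ratio, at 0.624, 0.540 and 0.511, stayed under 0.66. Frem1, a basement membrane protein of developing epithelia, was dim in control cells, at 13.7 and not well above background, and had a signal of 64.5 on the CHIR99021 array. Its bound in this processing was 2.83-fold higher, with a Z-score of 1.32. Leaving out uneven spots kept its computed ratio at 4.889 and moved the Z-score alone, to 2.60, where it was called higher. With normexp correction its ratio was 1.699 and it was not called. The spot lay in row 274, and Frem1 has no tested spot in the earlier rows. Ambn, an enamel matrix protein, was detected on neither array.

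Of 16 receptors for collagen or laminin, 13 were detected on the control array and tested, with 2 called lower, 0 higher and a median log2 ratio of -0.06. Ddr1, a receptor tyrosine kinase that collagen activates, had signals of 2541 and 1261, a ratio of 0.515 (Z-score -3.06). Itga3, the integrin α chain that binds laminins of epithelia, had signals of 788 and 408, a ratio of 0.537 (Z-score -2.35). Both spots lay in the later rows, at 241 and 270, and neither has a tested spot in the earlier rows. As a mean over its probes the ratio of Itga3 was 0.822 (Z-score -0.51), and it was not called. The integrins Itgb4 and Itga6, which bind laminin at hemidesmosomes, had signals of 163 and 166 and of 1799 and 1945, with ratios of 1.06 and 1.12. In these lists too the shares of all gene names called, 3.22% lower and 2.63% higher, are the background.

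**Figure D5:**
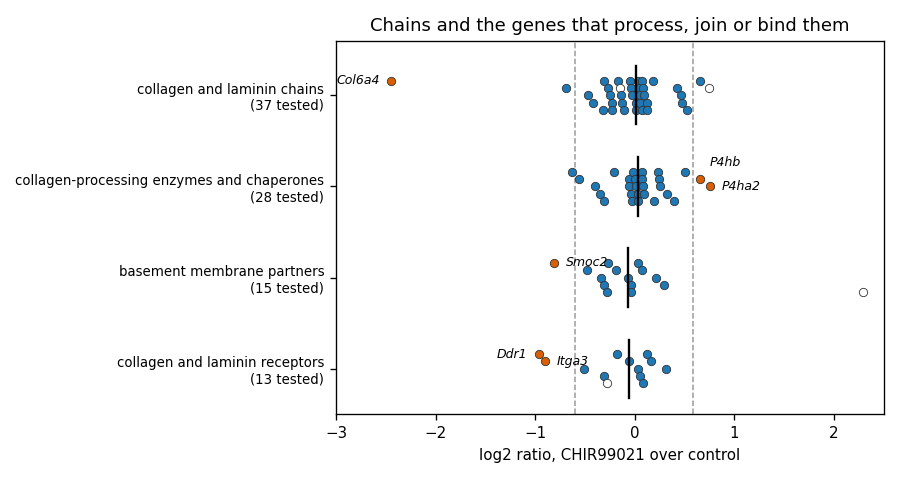
log2 ratio of CHIR99021 over control for each tested chain and each tested gene of 3 lists; orange points met both criteria and are named, open points were not well above background on 1 array, black bars are medians and dashed lines the ratios 0.66 and 1.5. The medians lie between -0.07 and 0.03, and Frem1 is the open point at 2.29.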

How the data were processed

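Per the labels, RNA purified with TRIzol was amplified, labelled with Cy3 and hybridised to 1 array per condition. The authors deposited, per the file headers, the intensity of each spot from Feature Extraction 10.7.1.1 (9.5.1.1 in the submitters' processing notes) after background subtraction, on a mouse design in mm9, although the methods name a human array. They also deposited a table of intensity normalized between arrays, whose sorted columns are equal, within 0.0001, at 99.95% of positions. Control and outlier spots were left out, spots of a probe averaged, and log2 values set relative to the 75th percentile in Python 3.11.15 (numpy 2.4.6, pandas 2.3.3; matplotlib 3.10.9 for figures). A probe dim on 1 array gave a bound, taken against its own signal there or, if higher, the lowest detected signal. Such a bound holds for this background subtraction and scaling only. There were 59305 spots, of which 49.8% and 48.3% were well above background and 0 saturated. The code for the calls was also run on simulated log2 ratios of constant spread. In these arrays the spread widens toward dim signals and large ratios gather in the later rows. The simulation therefore does not bear on whether the calls made here are right.

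The members and lists were chosen with earlier results of these data known. A chain and a marker gene are counted but not reported here by name. Named were every other laminin chain, every basement membrane collagen, every other chain measured on both arrays, chains and listed genes past 0.66 or 1.5, marker genes and, chosen after their values were seen, P4ha1, P4ha3, Itga6, Itgb4 and Ambn. Of 121 probe accessions 85 matched the GRCm38.p6 table. Alternatives were quantile, median and no scaling, the percentile over detected probes, normexp with an offset of 50 (limma 3.58.1, R 4.3.3), the authors' table, other filters, the mean over probes, the earlier rows, no uneven spots, the ratio alone and, chosen after seeing the data, a floor for dim signals.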

Additional observations from a re-analysis of the deposited data

How the results depend on the processing

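With 1 array per condition and a single slide, these alternatives test the calculation and not the biology. The count of 36 chains detected on the control array was 36 with the highest-signal probe alone, 47 with the flag for a positive and significant signal, 35 on both arrays and 33 without uneven spots. The count of chains called lower, 1, was 2 under quantile normalization, the authors' table, the mean over probes and the ratio alone. It was 0 with the earlier rows alone (24 chains tested) or without uneven spots (34 tested), where Col6a4 has no tested spot left. The count of chains called higher was 2 with the ratio alone and 0 elsewhere. The median log2 ratio of the chains was 0.0389 with median scaling, -0.0469 with quantile normalization, -0.0455 without scaling, -0.0439 with the percentile over detected probes, -0.0622 in the authors' table and -0.1404 with the mean over probes; the cause was not tested. Other scalings moved the median of all gene names to between -0.03 and 0.06, and with the mean over probes it was 0.02.

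Enzymes called higher, 2, were 1 under quantile normalization, the authors' table, the mean over probes and the earlier rows, and 1 enzyme was lower by the ratio alone. Basement membrane partners called lower, 1, were 0 with normexp, the mean over probes and the earlier rows, and 1 was higher by the ratio alone and without uneven spots. Receptors called lower, 2, were 1 with the mean over probes and 0 in the earlier rows. Of 426 chain ratios under alternatives, 187 were identical, many under settings that leave the ratio of a kept probe as it is, 56 moved by no more than the SD between spots and 183 by more. No paired analysis was possible because there is a single array of either kind. Depth of signal limits the 18 chains detected on neither array, for which no ratio was read, and Lamb3 and Col9a2, which have only a bound.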
